A study of Homo sapiens with 24 samples.

Results

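The mRNA levels of 10 genes of the epithelial-mesenchymal transition (EMT) were followed in 2 cancer cell lines, SUM159 and SW620. The genes were VIM, FN1, ZEB1, ZEB2, SNAI1, SNAI2, TWIST1, CDH1, CDH2 and SPARC. They were chosen by symbol, and all 10 were found among the 28307 genes of the count table. RNA-seq was performed on 24 libraries, 3 independent biological replicates in each of 8 groups. SUM159 is a breast cancer line and SW620 a colon cancer line, grown as adherent cultures. Both were treated with Nifuroxazide (NIF), a nitrofuran antibiotic, or with the vehicle DMSO for 30 h. Cells with bright (ALDHbr) and with low (ALDHneg) aldehyde dehydrogenase activity were sorted after the treatment, so that each sample holds the cells that carried that phenotype at the end. ALDHbr cells are the fraction that the study uses as cancer stem cells.

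EMT is the passage of polarised, cohesive epithelial cells to a migratory state with front-rear polarity. E-cadherin, encoded by CDH1, holds epithelial cells together, and cells that lose it often gain N-cadherin (CDH2), the intermediate filament vimentin (VIM), and the matrix proteins fibronectin (FN1) and osteonectin (SPARC). The zinc finger factors ZEB1, ZEB2, SNAI1 and SNAI2 and the helix-loop-helix factor TWIST1 drive the switch, the zinc finger factors by binding E-boxes in promoters of epithelial genes such as CDH1. The miR-200 family targets ZEB1 and ZEB2 mRNA, and the ZEB factors repress the miR-200 genes in return.

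The mature miR-200 sequences are shown because their seeds form the other arm of the ZEB loop and because reads over their precursor loci differed between the lines and, for some loci, between NIF and DMSO. They are RefSeq sequences, 5′ to 3′, with the seed (bases 2 to 8) in capitals. The first 3 share the seed AAUACUG and the last 2 share AACACUG.
hsa-miR-200b-3p: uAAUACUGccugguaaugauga
hsa-miR-200c-3p: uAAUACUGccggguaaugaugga
hsa-miR-429: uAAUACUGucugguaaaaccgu
hsa-miR-200a-3p: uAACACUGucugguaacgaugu
hsa-miR-141-3p: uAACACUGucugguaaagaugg
The loci of miR-200b, miR-200a and miR-429 lie within a short stretch of chromosome 1, and those of miR-200c and miR-141 lie together on chromosome 12.

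The ZEB and SNAI factors bind E-boxes of the form CACCTG, which reads CAGGTG on the opposite strand. Both forms were searched in the 250 bases before the annotated starts in the RefSeq promoter table of GRCh38.p14, which covers both strands because each is the reverse complement of the other. Of 35116 such windows in the table, 6143 held the box (17.5%). Windows were present for 6 members (VIM, FN1, SPARC, ZEB1, ZEB2 and CDH2), 13 windows in all, and 2 of the 13 held a box, both of them before annotated starts of ZEB1. The windows of both miR-200 host genes held it too. The host windows and the first ZEB1 window are shown, all on the plus strand with the boxes in capitals. The other ZEB1 window with boxes (chr10:31318966-31319215) lies inside the gene, before a later start, and is not printed. Its boxes start 242 and 85 bases before the transcript start. Reads of ZEB1, of MIR200CHG and over the chromosome 1 miR-200 loci are compared between the lines, while reads of MIR200BHG are not given. For MIR200BHG (chr1:1162627-1162876) the boxes start 102 and 58 bases before the transcript start.
MIR200BHG: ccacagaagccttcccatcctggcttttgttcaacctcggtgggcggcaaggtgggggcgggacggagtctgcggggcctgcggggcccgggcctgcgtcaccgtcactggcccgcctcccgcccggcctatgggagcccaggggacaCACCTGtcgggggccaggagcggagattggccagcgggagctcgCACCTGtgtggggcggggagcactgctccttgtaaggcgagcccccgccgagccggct
For MIR200CHG (chr12:6962995-6963244) the box starts 78 bases before the transcript start.
MIR200CHG: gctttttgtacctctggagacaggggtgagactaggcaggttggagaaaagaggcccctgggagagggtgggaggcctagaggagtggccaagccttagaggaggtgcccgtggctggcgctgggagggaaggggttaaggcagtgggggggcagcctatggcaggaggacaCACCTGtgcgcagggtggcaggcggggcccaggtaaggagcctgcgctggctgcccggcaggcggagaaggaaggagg
For ZEB1, the first of its 7 windows (chr10:31318167-31318416) has its box 57 bases before the transcript start, in the CAGGTG form.
ZEB1: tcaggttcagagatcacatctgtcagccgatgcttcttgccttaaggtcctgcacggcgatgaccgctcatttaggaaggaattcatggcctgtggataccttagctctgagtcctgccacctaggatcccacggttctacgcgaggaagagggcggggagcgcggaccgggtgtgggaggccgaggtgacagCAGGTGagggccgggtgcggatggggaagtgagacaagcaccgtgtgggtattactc
A match is a description of the letters, and binding was not measured.

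Libraries held 30253187 to 43127948 counts, with a median of 36520935. Levels are given as CPM, read counts scaled to the size of each library with TMM factors over all 24 libraries, and per kilobase (kb) of the canonical transcript where genes are compared with each other. The sort reads aldehyde dehydrogenase activity. The sorted fractions were therefore checked with the mRNA of ALDH1A1, an enzyme of this family. In SUM159 it stood at 141, 97.3 and 143 CPM in the ALDHbr DMSO libraries and at 0.449, 0.395 and 0.506 CPM in the ALDHneg DMSO libraries. In SW620 both fractions expressed it, at 1440.3, 1342 and 1409 CPM in ALDHbr and 940.4, 976 and 952 CPM in ALDHneg cells under DMSO. The line labels were checked with 10 colon epithelial markers, whose summed level was 607 to 856 CPM in SW620 and 0.112 to 2.05 CPM in SUM159. Of 10 leukocyte markers, 3 never passed 10 counts in SUM159 and 5 never did in SW620. NKG7 was at 0 in every library and CD3E never passed 1 count. CD68 had 346 to 1137 counts in SUM159 and 398 to 1221 in SW620, and LYZ made up most of the list in SW620 (41997 to 65778 counts). Of 10 fibroblast and endothelial markers, 6 never passed 10 counts in SUM159 and 9 never did in SW620.

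SUM159 cells carried the mesenchymal members and SW620 cells the epithelial one. In RefSeq on GRCh38.p14 the members lie apart from each other, with VIM at chr10:17228241-17237593, ZEB1 at chr10:31318417-31529804, FN1 at chr2:215360865-215436068, ZEB2 at chr2:144384081-144520119, SPARC at chr5:151661096-151686915, TWIST1 at chr7:19113047-19117636, SNAI2 at chr8:48917598-48921429, CDH1 at chr16:68737292-68835537, CDH2 at chr18:27932879-28177130 and SNAI1 at chr20:49982980-49988886. Per kb, VIM was the most abundant member in SUM159, with a mean of 1988 CPM per kb over 12 libraries (range 1644 to 2274). FN1 followed at 224 (155 to 302) and SPARC at 146 (114 to 191), and the ranges of these matrix genes overlapped. CDH2 stood at 37.9 CPM per kb (24.2 to 52.9) and SNAI2 at 33.3 (22.2 to 45.9), again overlapping. SNAI1 at 9.64 (5.46 to 16.9) and ZEB1 at 9.09 (7.59 to 10.3) could not be ordered either. ZEB2 at 4.54 (3.18 to 7.37) and TWIST1 at 2.71 (1.77 to 4.05) were the weakest of the factors, and CDH1 was close to 0. In SW620 the order was turned round. CDH1 was the only member at a high level, with a mean of 91.0 CPM per kb (81.1 to 103), and SNAI1 was the only factor with a steady level, at 2.21 CPM per kb (1.38 to 3.23). VIM, FN1 and ZEB1 stayed at or under 0.26 CPM per kb in each of the 12 libraries.

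**Figure D1:**
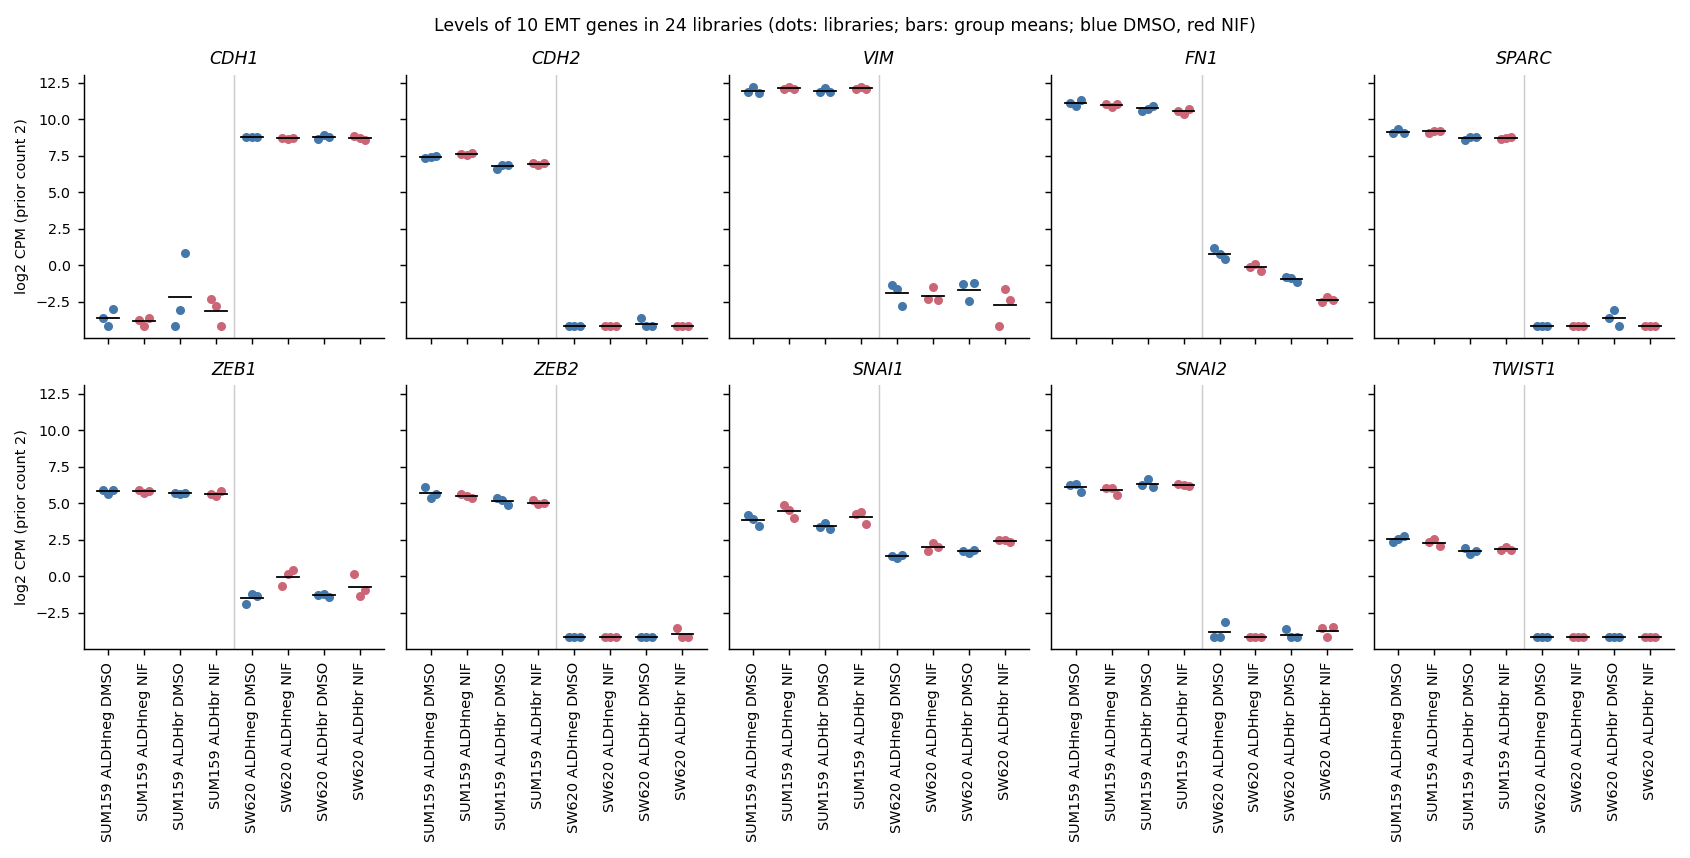
Level of each member as log2 CPM with a prior count of 2 (y axis) in the 8 groups (x axis). Dots are the 3 libraries of a group, bars their means, blue is DMSO and red NIF. CDH1 is high in the 12 SW620 libraries (390 to 495 CPM), the other 9 members are higher in SUM159, and 1 SUM159 ALDHbr DMSO library has CDH1 above the rest of its line.

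In DMSO-treated cells all 10 members differed between the lines in both fractions by edgeR's quasi-likelihood test (adjusted p at most 3.8e-07), 9 higher in SUM159 and CDH1 higher in SW620. The lines differ widely, so that the test called 81.3% of all 16271 genes in ALDHbr cells (41.7% higher and 39.6% lower in SUM159) and 81.2% in ALDHneg cells. Members that were at or near 0 in one line entered the test only through the other line, where they are high. With 1 line for each tissue, the tissue of origin and everything else that separates the lines cannot be told apart. In bulk RNA, fewer cells with a transcript and less transcript per cell cannot be told apart either.

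Vimentin had 132018, 142012 and 148375 counts in the ALDHbr DMSO libraries of SUM159 and 14, 4 and 13 counts in those of SW620. SPARC had 13537, 14236 and 17257 counts against 1, 2 and 0. FN1 had 53913, 52946 and 78219 counts against 21, 16 and 14. For none of these structural genes did the lines come near each other. Summed over the 3 libraries, the ratio of SUM159 to SW620 was 13651 for VIM (95% interval of the counting error 9617 to 20092) and 3636 for FN1 (2765 to 4883). For SPARC, with 3 counts in all in SW620, it was 15038 (5145 to 72923).

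Among the factors, TWIST1 had no count in any SW620 library, against 90 to 287 counts in SUM159. Set against a floor of 3 counts over the group, it was at least 118-fold higher in ALDHbr and at least 211-fold higher in ALDHneg cells of SUM159 under DMSO. Its close relative TWIST2, looked up after its values were seen, was also at 0 in all 12 SW620 libraries and had 1181 to 1708 counts in SUM159. ZEB2 was at 0 in the 6 DMSO libraries of SW620 and was at least 1252-fold (ALDHbr) and at least 1926-fold (ALDHneg) higher in SUM159. SNAI2 had at most 2 counts in any SW620 library and 1720 to 3318 in SUM159.

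ZEB1 was not silent in SW620. It had 14, 12 and 11 counts in ALDHbr and 8, 14 and 11 in ALDHneg DMSO libraries, against 1770, 1593 and 2030 and 2322, 1654 and 2560 in SUM159. The ratios were 146 (106 to 208) and 187 (133 to 272). SNAI1 was the member with the smallest gap. It stood at 10.2, 12.8 and 9.30 CPM in SUM159 ALDHbr and 3.29, 2.98 and 3.41 CPM in SW620 ALDHbr libraries under DMSO, a ratio of 3.29 (2.91 to 3.72). In ALDHneg cells the ratio was 5.73 (5.04 to 6.54), from 18.1, 15.1 and 10.6 CPM against 2.52, 2.35 and 2.68 CPM. The ranges of the lines did not overlap for any member in either fraction, as for 79.9% and 82.9% of all genes.

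The cadherins were exchanged nearly completely. CDH2 had 3353 to 9571 counts in SUM159 and 1 count over all 12 SW620 libraries. CDH1 had 11610 to 17149 counts in SW620 and 0 to 6 counts in 11 of the 12 SUM159 libraries. The exception was the third SUM159 ALDHbr DMSO library, with 68 CDH1 counts (1.72 CPM). CDH1 made up 1.22% of the summed CPM per kb of both cadherins in that library and at most 0.0943% in the other SUM159 libraries.

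That library stood apart in other genes that are high in SW620. EPCAM, an epithelial adhesion molecule, had 87 counts in it and at most 11 in the other 11 SUM159 libraries. The keratins KRT20 and KRT19 had 75 and 153 counts, against at most 1 and 7. The galectin LGALS4 had 55 counts against at most 19 and lysozyme (LYZ) 171 against at most 27. Relative to the SW620 ALDHbr DMSO mean, the CPM in this library was 0.384% for CDH1, 0.257% for EPCAM, 0.410% for KRT20, 0.266% for KRT19, 0.332% for LGALS4 and 0.262% for LYZ. The source of these reads was not tested. The ratio of SW620 to SUM159 for CDH1 was 669 (529 to 858, counting error only) in ALDHbr cells with this library included, and 12741 (4976 to 46765) in ALDHneg cells. The fitted log2 fold change of SUM159 over SW620 in ALDHbr cells was −9.40 with the library and −13.7 without it.

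**Figure D2:**
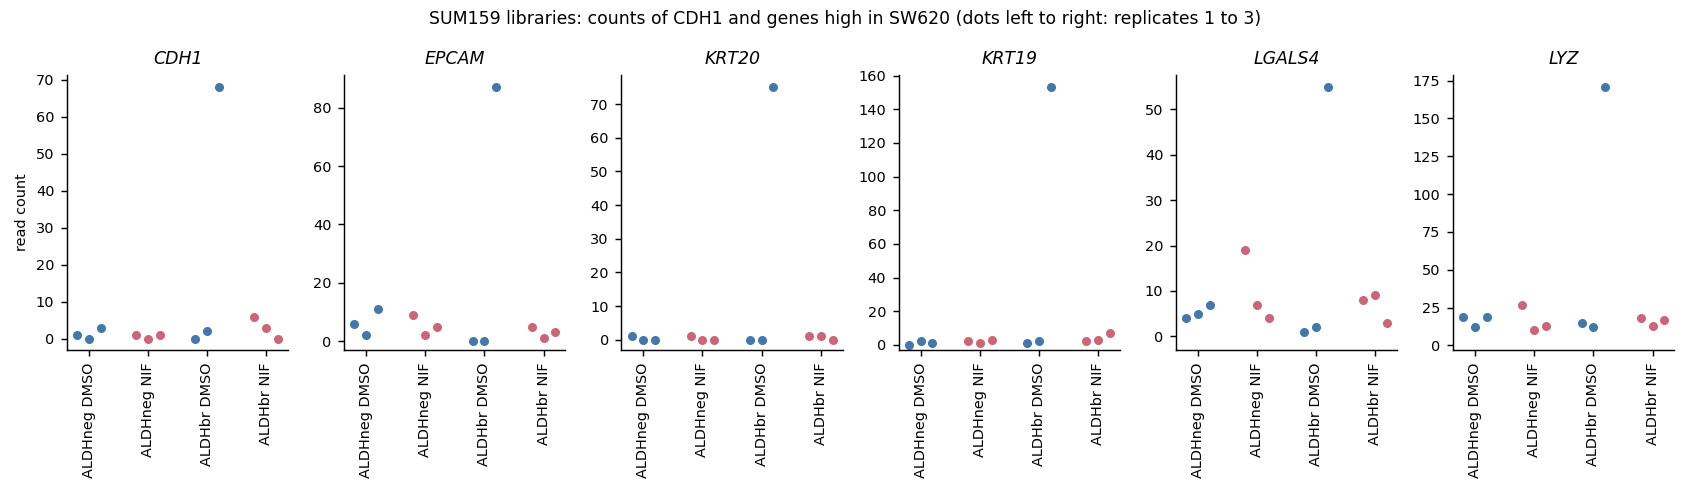
Read counts (y axis, linear) of CDH1 and 5 genes that are high in SW620, in the 12 SUM159 libraries by group (x axis), with dots of a group in the order of replicates 1 to 3, blue for DMSO and red for NIF. In each panel the third ALDHbr DMSO library is the highest, at 68 counts for CDH1 and 171 for LYZ.

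Most of the other epithelial genes were lower in SUM159 and most mesenchymal effectors higher, while the mesenchymal regulators went both ways. Over all genes, 41.7% were higher and 39.6% lower in SUM159 in ALDHbr cells, and 42.7% and 38.5% in ALDHneg cells. Of 30 epithelial adhesion and keratin genes tested, 27 were lower in SUM159 and 2 higher in ALDHbr cells (median log2 fold change −5.03, against 0.05 over all genes), and 28 and 2 in ALDHneg cells. ST14, the protease matriptase, was at 0.498 ± 0.838 CPM in SUM159 and 788 ± 49.7 CPM in SW620 (SD, n = 3) in ALDHbr cells. EPCAM was at 0.733 ± 1.27 CPM against 856 ± 89.9. The SUM159 means of both rest on the third ALDHbr DMSO library, without which their log2 fold changes went from −10.5 to −15.3 (ST14) and from −10.0 to −17.9 (EPCAM). In ALDHneg cells the protease inhibitor SPINT1 had no count in SUM159 and was at 373 ± 14.8 CPM in SW620, and KRT19 was at 0.0279 ± 0.0307 against 1389.9 ± 40.9 CPM. Of 17 epithelial regulators, 15 were lower and 2 higher in SUM159 in both fractions. Among them ESRP1, the splicing factor of epithelial isoforms, had 6 to 65 counts in SUM159 and 5495 to 9749 in SW620. Of 39 mesenchymal effectors 36 were tested, with 29 higher and 4 lower in SUM159 in both fractions. The fibronectin receptor subunit ITGA5 was at 367 ± 34.0 CPM in SUM159 ALDHbr cells, and at 0.00851 ± 0.0147 CPM in SW620. Of 22 mesenchymal regulators tested 13 were higher in SUM159 in each fraction, with 6 (ALDHbr) and 8 (ALDHneg) lower. Of these FOXC2, a forkhead factor, was at 90.8 ± 14.4 CPM in SUM159 ALDHbr cells and at 0 in SW620.

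Pathway genes around the factors were called in both directions. Of 33 TGF-beta pathway genes tested, which carry the main extracellular signal for EMT, 20 were higher and 7 lower in SUM159 in ALDHbr cells, and 17 and 9 in ALDHneg cells. Of 20 genes for SNAI1 stability and repressor cofactors, 4 were higher and 11 lower in ALDHbr cells, and 4 and 13 in ALDHneg cells.

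Reads over the miR-200 precursors were found in SW620 libraries. MIR429 had 45 to 86 counts in the 6 DMSO libraries of SW620, MIR200A 12 to 30 and MIR200B 10 to 22, and the host transcript MIR200CHG had 34 to 55. All 4 were at 0 in each of the 12 SUM159 libraries. Reads over MIR200C and MIR141 were at 0 to 2 in SW620. These are reads of total RNA over the loci, and mature miRNA was not measured.

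Within SUM159, ALDHbr cells had less of several mesenchymal members than ALDHneg cells while vimentin was not called. Under DMSO, 5 of the 9 members tested were lower in ALDHbr cells and none was higher, namely CDH2, SPARC, FN1, ZEB2 and TWIST1, where 12.3% of all 14953 genes were lower and 10.7% higher. The fractions did not overlap for these 5 members, as for 36.6% of all genes. Without the third ALDHbr library, which holds the CDH1 reads, 4 of the 5 were called, all but ZEB2. CDH1 was too low to be tested. The replicate numbers pair the SUM159 libraries, and with them as a block 6 members were lower and SNAI2 was higher (18.2% and 17.9% of all genes).

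CDH2, the cadherin of mesenchymal cells, stood at 97.1, 119 and 116 CPM in ALDHbr and 161, 173 and 182 CPM in ALDHneg cells under DMSO. The fractions were fully apart, with a log2 fold change of −0.64 ± 0.079 (SE, adjusted p = 2.64e-05). Under NIF the gap was seen again, from 128, 119 and 128 CPM against 202, 187 and 213 CPM (−0.69 ± 0.079, adjusted p = 1.36e-05). Those libraries carry the same replicate numbers, which pair them with the DMSO libraries, so that these gaps are not independent.

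SPARC, the matrix glycoprotein, was at 392, 455 and 436 CPM in ALDHbr and 530.0, 658 and 542 CPM in ALDHneg cells (−0.43 ± 0.082, adjusted p = 0.00131). Under NIF it was at 406, 422 and 444 against 542, 603 and 604 CPM (−0.46 ± 0.082, adjusted p = 0.00078). The groups did not overlap in either medium, as for 36.6% of all genes under DMSO and 38.1% under NIF. Fibronectin was at 1561, 1693 and 1978 CPM against 2194, 1978 and 2533 CPM under DMSO, where the highest ALDHbr and the lowest ALDHneg library nearly met (−0.36 ± 0.11, adjusted p = 0.0329). It was at 1565, 1301 and 1666 against 2135, 1836 and 2139 CPM under NIF (−0.44 ± 0.11, adjusted p = 0.0121), and there lost the call without ALDHbr library 2 or ALDHneg library 1. The DMSO call for FN1 was lost in 4 of the 6 fits that leave out 1 library (ALDHbr 1 or 2, ALDHneg 1 or 3), with log2 fold changes from −0.37 to −0.26 there, and held with the replicate block (adjusted p = 3.44e-05).

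TWIST1 was the factor with the widest gap under DMSO, at 3.85, 2.88 and 3.29 CPM in ALDHbr and 4.99, 5.90 and 6.6 CPM in ALDHneg cells (−0.81 ± 0.16, adjusted p = 0.00222). Under NIF the gap was −0.48 ± 0.16, close to the threshold (adjusted p = 0.0498, and 0.02 with the block), from 3.4, 3.89 and 3.44 CPM against 5.00, 5.79 and 4.07 CPM. It lost the call in 5 of the 6 fits that leave out 1 library, each of them but the one without the third ALDHneg NIF library. ZEB2 was at 40.7, 37.7 and 29.4 CPM against 68.2, 41.2 and 50.0 CPM under DMSO (−0.57 ± 0.16, adjusted p = 0.0166). The first ALDHneg library was the highest of them, and without it the change was −0.35 and the call was lost, as it was without the third ALDHbr library (−0.44). Under NIF, ZEB2 was at 37.2, 30.3 and 31.7 against 50.5, 45.8 and 42.0 CPM (−0.48 ± 0.16, adjusted p = 0.0392), a call that was lost without libraries 2 or 3 of ALDHbr or 1 or 2 of ALDHneg cells (−0.49 to −0.41).

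ZEB1 was not called, at 51.2, 50.9 and 51.3 CPM in ALDHbr and 61.3, 50.3 and 58.9 CPM in ALDHneg cells under DMSO (adjusted p = 0.244, and 0.0576 with the block). SNAI1 and SNAI2, which belong to the same factor family, had opposite signs. SNAI1 was at 10.2, 12.8 and 9.30 CPM in ALDHbr and 18.1, 15.1 and 10.6 CPM in ALDHneg cells, with an overlap between the fractions, and passed the test only with the block (−0.42 ± 0.11, adjusted p = 0.00593). SNAI2 was at 76.3, 100.03 and 70.4 CPM against 77.1, 81.2 and 55.4 CPM, and was called higher in ALDHbr cells with the block (0.21 ± 0.078, adjusted p = 0.0376). Under NIF it was at 79.9, 76.3 and 72.9 against 67.3, 64.8 and 48.3 CPM with no overlap, as for 38.1% of all genes. The blocked value there was 0.35 ± 0.078 (adjusted p = 0.00113). VIM was at 3821, 4540.1 and 3751 CPM in ALDHbr and 3807, 4847 and 3541 CPM in ALDHneg cells under DMSO (adjusted p = 0.963).

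**Figure D3:**
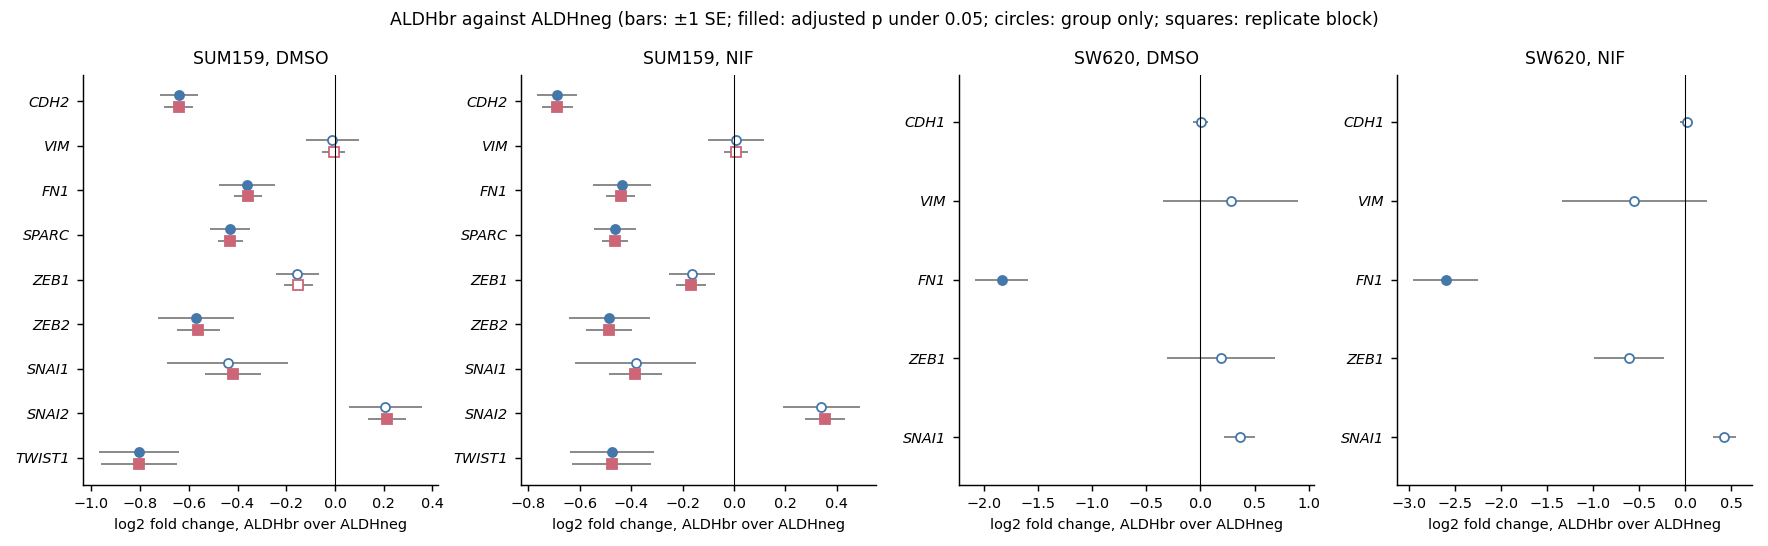
Log2 fold change of ALDHbr over ALDHneg cells (x axis) for the members tested in each line (y axis), under DMSO and under NIF, with bars of 1 SE. Filled symbols have an adjusted p under 0.05, circles are fits by group and squares fits with the replicate block. In SUM159 CDH2 (−0.64 and −0.69), SPARC, FN1, ZEB2 and TWIST1 are on the negative side in both media, and in SW620 FN1 is (−1.84 and −2.61).

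Under NIF the same 5 members were called in SUM159 (12% of all genes were lower and 9.95% higher), and 8 with the block, where ZEB1 (−0.17, adjusted p = 0.0348), SNAI1 (−0.38, adjusted p = 0.00643) and SNAI2 joined them (35.2% of all genes called either way).

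Mesenchymal effectors outside the members were also lower in SUM159 ALDHbr cells. Under DMSO 18 of 36 tested were lower and 4 higher (median log2 fold change −0.41, against 0.00 over all genes), and with the block 20 and 6. Of all genes, 12.3% were lower and 10.7% higher by group, and 18.2% and 17.9% with the block. The calcium-binding protein S100A4 was at 4.2 ± 1.19 CPM in ALDHbr and 84.2 ± 18.6 CPM in ALDHneg cells (SD, n = 3; log2 fold change −4.31 ± 0.19, adjusted p = 9.43e-10). The adhesion molecule MCAM was at 6.23 ± 1.34 against 89.1 ± 8.80 CPM (−3.83 ± 0.18). In the other direction, the growth factor receptor PDGFRA was at 47.5 ± 4.05 against 15.0 ± 3.85 CPM (1.66 ± 0.18) and smooth muscle actin (ACTA2) at 5.55 ± 0.737 against 2.58 ± 0.215 CPM (1.11 ± 0.16). Under NIF 17 effectors were lower and 5 higher (12% and 9.95% of all genes), with S100A4 at −4.34 ± 0.20 and MCAM at −4.04 ± 0.18. There PDGFRA (1.73 ± 0.18) and plakoglobin (JUP, 0.96 ± 0.23), which links cadherins to the cytoskeleton, were higher. PDGFRA is also on the list of fibroblast and endothelial markers. The sum of that list was 48.4 to 56.1 CPM in ALDHbr and 21.6 to 31.4 CPM in ALDHneg cells under DMSO. Over the SUM159 libraries of both media, PDGFRB had 28 to 387 counts, DCN 16 to 158 and KDR at most 20. The other 6 genes of that list never passed 10 counts in SUM159. The part of other cell types in these differences was not tested.

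The other lists had calls in both directions, where 10.7% of all genes were higher and 12.3% lower. Of 20 epithelial adhesion and keratin genes tested in SUM159, 6 were higher and 2 lower in ALDHbr cells under DMSO. Of 12 epithelial regulators 2 were higher and 1 lower, of 21 mesenchymal regulators 4 and 4, of 33 TGF-beta pathway genes 4 and 4, and of 20 SNAI1 cofactor genes 3 and 3.

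In SW620, FN1 was the only member called between the fractions. It had 21, 16 and 14 counts in ALDHbr and 84, 60 and 44 counts in ALDHneg cells under DMSO (log2 fold change −1.84 ± 0.25, adjusted p = 0.000309). Under NIF it had 4, 5 and 4 counts against 31, 38 and 26 (−2.61 ± 0.35, adjusted p = 0.00043). The fractions were fully apart in both media, as for 28.4% of all genes under DMSO and 30% under NIF. In all, 1 of 5 members tested was called, where 11.3% of all 13953 genes were under DMSO (5.86% lower) and 6.67% under NIF (3.26% lower). The share under DMSO rests on the second ALDHbr library, since 5487 genes were called without it, 1577 with it and 712 to 772 when any other library was left out.

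CDH1 was not called across the sort in SW620. It was at 407, 495 and 440.2 CPM in ALDHbr and 446, 445 and 448 CPM in ALDHneg cells under DMSO (adjusted p = 0.99). SNAI1 was at 3.29, 2.98 and 3.41 against 2.52, 2.35 and 2.68 CPM, with no overlap and an adjusted p of 0.102. Under NIF it was at 5.51, 5.45 and 5.04 against 3.26, 4.75 and 3.90 CPM (adjusted p = 0.0659), again with no overlap. Of all genes, 28.4% did not overlap between the fractions under DMSO and 30% under NIF.

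Among 23 mesenchymal effectors tested in SW620, 6 were higher and 6 lower in ALDHbr cells under DMSO, and 5 and 6 under NIF. The receptor kinase AXL was at 6.73 ± 0.997 against 14.4 ± 0.416 CPM (−1.10 ± 0.094) and caveolin (CAV1) at 9.11 ± 0.585 against 18.1 ± 1.86 CPM (−0.99 ± 0.091) under DMSO. CCN2, a matricellular protein, was higher at 7.54 ± 0.593 against 3.76 ± 0.341 CPM (1.00 ± 0.11), as was TAGLN (0.86 ± 0.22, adjusted p = 0.0242), whose call was lost in 4 of 6 fits without 1 library. Under NIF the protease PLAU (−0.78 ± 0.072) and tenascin (TNC, −0.58 ± 0.14, adjusted p = 0.0266) were lower and CD44 (0.81 ± 0.073) and TAGLN (0.76 ± 0.21, adjusted p = 0.0492) higher. The calls for TNC and TAGLN were lost in 5 and 6 of the 6 fits without 1 library. Of 31 TGF-beta pathway genes 8 were lower and 1 higher under DMSO, and 4 and 1 under NIF, where 5.86% of all genes were lower and 5.45% higher under DMSO and 3.26% and 3.41% under NIF. Of 10 colon markers 5 were higher in ALDHbr cells in both media and none was lower, with a sum of 759.7 to 821 CPM against 607 to 613 CPM under DMSO. Their part in the FN1 difference was not tested.

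SNAI1 was the only member called under NIF in all 4 populations. That held with the replicate block or with no filter on low counts, but not by group with the filter. FN1 was lower under NIF in all 4, with blocked values of −0.21 (ALDHbr) and −0.13 (ALDHneg) in SUM159 and −1.76 and −0.98 in SW620. It was not called in SUM159 ALDHneg cells. SNAI1, the zinc finger repressor of CDH1, was higher in NIF than in DMSO by 0.65 to 0.72 on the log2 scale, and this passed the test by group in both SW620 fractions and with the replicate block in both SUM159 fractions. In SUM159 no member was called by group, where 3.16% of all genes were called in ALDHbr (0.936% higher and 2.23% lower) and 3.3% in ALDHneg cells (1.1% and 2.2%). At an unadjusted p under 0.05 these were 2503 and 2510 genes, and 2 members (CDH2 and SNAI1) in each fraction. With the block 3 of 9 were called in ALDHbr (13.3% of all genes) and 4 of 9 in ALDHneg cells (13.2%).

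In SUM159 ALDHbr cells SNAI1 was at 10.2, 12.8 and 9.30 CPM under DMSO and 19.4, 21.5 and 11.9 CPM under NIF, in the order of the replicates. Each NIF library was above the DMSO library of its own number, but the third NIF library was below the second DMSO library. The log2 fold change was 0.70 ± 0.25 (adjusted p = 0.144) by group and 0.67 ± 0.11 (adjusted p = 0.000301) with the block.

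In SUM159 ALDHneg cells it was at 18.1, 15.1 and 10.6 CPM under DMSO and 28.9, 23.6 and 15.8 CPM under NIF. The third replicate was again the lowest in each medium. The change was 0.65 ± 0.24 (adjusted p = 0.173) by group and 0.64 ± 0.11 (adjusted p = 0.000309) with the block.

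In SW620 the libraries were tighter. SNAI1 rose from 3.29, 2.98 and 3.41 CPM to 5.51, 5.45 and 5.04 CPM in ALDHbr cells (0.72 ± 0.13, adjusted p = 0.000547). In ALDHneg cells it rose from 2.52, 2.35 and 2.68 CPM to 3.26, 4.75 and 3.90 CPM (0.65 ± 0.14, adjusted p = 0.00143, and 0.0508 when all 24 libraries share a fit). The NIF and DMSO groups did not overlap in either fraction, as for 45.1% of all genes in ALDHbr and 63.4% in ALDHneg cells. The NIF effect on SNAI1 was not called different between ALDHbr and ALDHneg cells in SUM159 (adjusted p = 1) or in SW620 (adjusted p = 0.978), nor between the lines in ALDHbr (adjusted p = 1) or ALDHneg cells (adjusted p = 1). Those tests called no gene at all between the SUM159 fractions (238 of 14953 with an unadjusted p under 0.05, and 2 by DESeq2) and 1 gene between the SW620 fractions (0.00717%, with 771 at an unadjusted p under 0.05 and 31 by DESeq2).

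**Figure D4:**
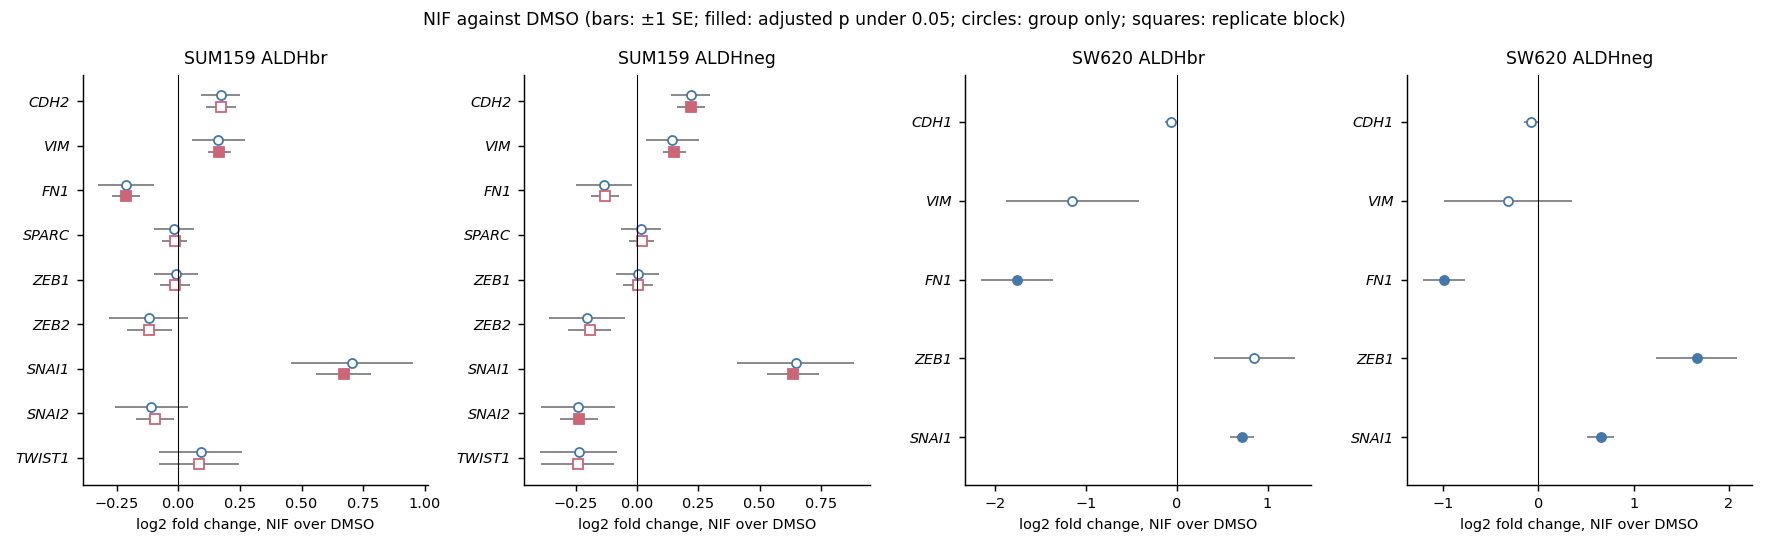
Log2 fold change of NIF over DMSO (x axis) for the members tested in each population (y axis), with bars of 1 SE. Filled symbols have an adjusted p under 0.05, circles are fits by group and squares fits with the replicate block. SNAI1 is at 0.64 to 0.72 in all 4 panels, and FN1 is at −1.76 and −0.99 in SW620.

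FN1 fell in SW620, where it is scarce. In ALDHbr cells it went from 21, 16 and 14 counts under DMSO to 4, 5 and 4 counts under NIF (−1.76 ± 0.39, adjusted p = 0.00244). In ALDHneg cells it went from 84, 60 and 44 to 31, 38 and 26 counts (−0.99 ± 0.22, adjusted p = 0.00227). The groups did not overlap, as for 45.1% of all genes in ALDHbr and 63.4% in ALDHneg cells. In SUM159 ALDHbr cells FN1 was at 1561, 1693 and 1978 CPM under DMSO and 1565, 1301 and 1666 CPM under NIF, where only the blocked fit called it (−0.21 ± 0.057, adjusted p = 0.0142). In ALDHneg cells it was at 2194, 1978 and 2533 against 2135, 1836 and 2139 CPM (adjusted p = 0.139 with the block).

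ZEB1 rose in SW620 ALDHneg cells, from 8, 14 and 11 counts to 20, 39 and 48 counts (1.66 ± 0.42, adjusted p = 0.00527). In ALDHbr cells it had 14, 12 and 11 counts under DMSO and 36, 10 and 14 under NIF, and was not called (adjusted p = 0.142). The first NIF library alone was high there. For ZEB1 the difference in NIF effect between the fractions was not called, by group or with the replicate block (adjusted p = 0.988 with the block). ZEB1-AS1, an RNA transcribed from the opposite strand at the ZEB1 promoter and looked up after its values were seen, had 97 to 140 counts under DMSO and 120 to 193 under NIF in SW620. It rose by 0.51 ± 0.12 in ALDHbr (adjusted p = 0.00433) and 0.47 ± 0.12 in ALDHneg cells (adjusted p = 0.0051). The strand setting of the counting is not given in the sources used here, so that reads of ZEB1 and ZEB1-AS1 cannot be told apart where they overlap. In SUM159 ZEB1 was not called, at 51.2, 50.9 and 51.3 CPM under DMSO and 50.5, 45.1 and 57.4 CPM under NIF in ALDHbr cells (adjusted p = 0.974).

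In all, NIF changed 2 of 5 members tested in SW620 ALDHbr cells, where 43.3% of all 13953 genes were called (21.4% higher and 21.9% lower), and 3 of 5 in ALDHneg cells, where 45.1% were (22.3% higher and 22.7% lower). CDH1 was at 407, 495 and 440.2 CPM under DMSO and 469, 431 and 390.1 CPM under NIF in ALDHbr cells (adjusted p = 0.543). In ALDHneg cells it was at 446, 445 and 448 against 435, 415 and 431 CPM (adjusted p = 0.446). The ALDHneg groups did not overlap, as for 63.4% of all genes, and neither fraction was called. VIM stayed at 0 to 14 counts in SW620 under either medium.

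Of the miR-200 loci whose seeds are shown above, MIR429 fell under NIF in SW620 ALDHneg cells and MIR200A in ALDHbr cells. These values were looked up after they had been seen. MIR429 went from 86, 57 and 45 counts to 49, 25 and 39 in ALDHbr cells (adjusted p = 0.091) and from 77, 74 and 59 to 31, 47 and 27 in ALDHneg cells (−1.01 ± 0.25, adjusted p = 0.00411). MIR200A went from 29, 30 and 18 to 12, 4 and 2 counts in ALDHbr cells (−1.91 ± 0.48, adjusted p = 0.00544) and from 20, 19 and 12 to 6, 16 and 6 in ALDHneg cells (adjusted p = 0.148). MIR200B passed the test in neither (adjusted p = 0.0866 and 0.134). Each locus was thus called in 1 fraction at most, and the difference between the fractions was not called for MIR429 or MIR200A (adjusted p = 0.955 for both). The chromosome 12 host MIR200CHG was at 55, 43 and 53 counts under DMSO and 41, 38 and 49 under NIF in ALDHbr cells (adjusted p = 0.858).

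**Figure D5:**
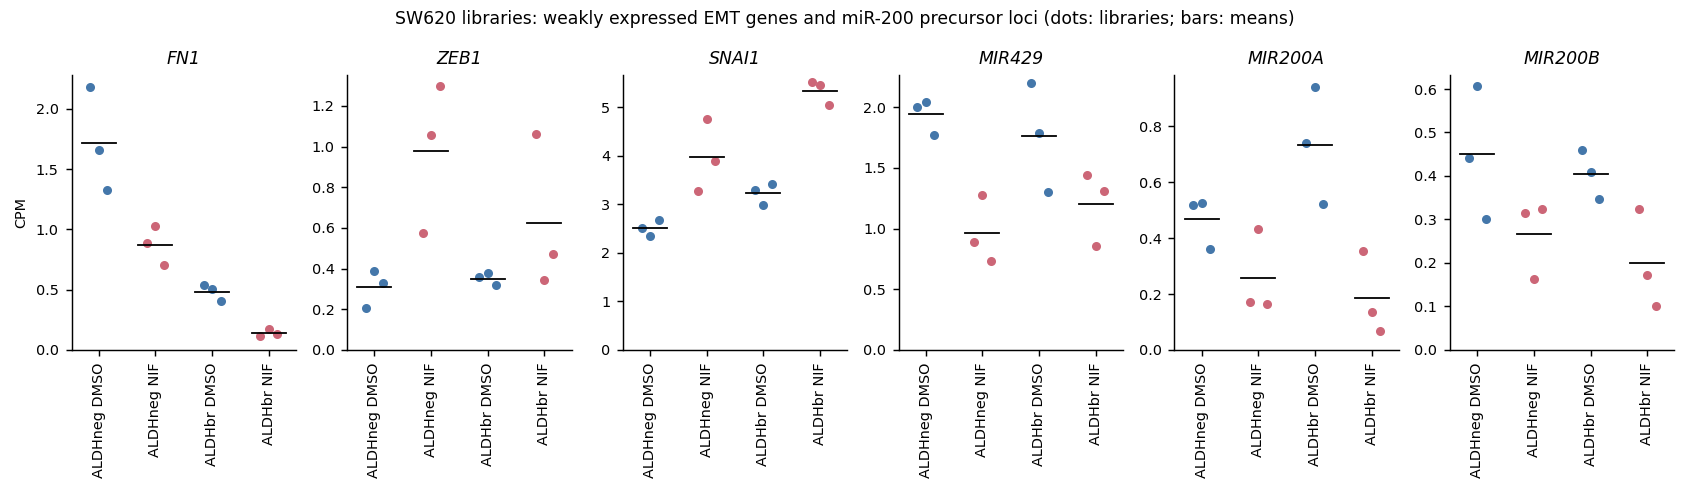
CPM (y axis, linear, a scale for each panel) of FN1, ZEB1, SNAI1 and 3 miR-200 loci in the 12 SW620 libraries by group (x axis). Dots are libraries, bars means of 3, blue is DMSO and red NIF. FN1 falls and SNAI1 rises with NIF in both fractions. ZEB1 separates fully in ALDHneg cells (0.208 to 0.387 CPM under DMSO, 0.573 to 1.30 under NIF), as do 63.4% of all genes.

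Other SUM159 members were called with NIF only by the blocked fit. CDH2 in ALDHneg cells was at 161, 173 and 182 CPM under DMSO and 202, 187 and 213 CPM under NIF. It was the only member whose NIF and DMSO groups did not overlap there (19.6% of all genes), and the blocked fit called it (0.22 ± 0.059, adjusted p = 0.0159). In ALDHbr cells it was at 97.1, 119 and 116 against 128, 119 and 128 CPM (adjusted p = 0.0611 with the block). VIM was higher with the block by 0.17 ± 0.047 in ALDHbr (adjusted p = 0.0213) and 0.15 ± 0.047 in ALDHneg cells (adjusted p = 0.0344). SNAI2 was lower with the block in ALDHneg cells, from 77.1, 81.2 and 55.4 to 67.3, 64.8 and 48.3 CPM (−0.24 ± 0.079, adjusted p = 0.0479). SPARC, ZEB1, ZEB2 and TWIST1 were not called by either fit in either fraction, with blocked adjusted p from 0.156 to 0.983.

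The wider EMT lists had few calls under NIF in SUM159, where 3.16% and 3.3% of all genes were called (13.3% and 13.2% with the block). They had more in SW620, where 43.3% and 45.1% were. In SUM159, 3 of 36 mesenchymal effectors were lower in each fraction and none was higher (with the block 7 higher and 5 lower in ALDHbr, 5 and 6 in ALDHneg cells). PLAU, the urokinase that activates plasmin at the cell surface, fell from 42.2 ± 4.81 to 16.4 ± 2.26 CPM in ALDHbr cells (SD, n = 3; −1.37 ± 0.14, adjusted p = 6.42e-05) and from 86.8 ± 15.9 to 31.9 ± 4.24 CPM in ALDHneg cells (−1.45 ± 0.14). The Runt factor RUNX2 fell from 16.6 ± 2.63 to 3.77 ± 0.527 CPM (−2.14 ± 0.19) and from 30.3 ± 6.19 to 12.0 ± 2.48 CPM (−1.33 ± 0.17). By group it was the only one of 21 mesenchymal regulators called in either fraction, while with the block 4 were higher and 3 lower in ALDHbr and 3 and 4 in ALDHneg cells. The keratin KRT7 rose in ALDHbr cells from 2974 ± 210.3 to 4196 ± 159 CPM (0.49 ± 0.081, adjusted p = 0.00327). Of 33 TGF-beta pathway genes 3 and 2 were lower and none was higher (with the block 9 lower and 4 higher in ALDHbr, 8 and 3 in ALDHneg cells).

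In SW620 PLAU went the other way. It rose from 4.58 ± 0.368 to 20.7 ± 0.978 CPM in ALDHbr cells (2.17 ± 0.083, adjusted p = 1.59e-10) and from 8.23 ± 0.563 to 35.7 ± 1.32 CPM in ALDHneg cells (2.10 ± 0.076). The difference between the lines in ALDHneg cells was itself tested (−3.56 ± 0.17, adjusted p = 4.2e-13). The factor ETS1 rose in ALDHneg cells from 14.3 ± 0.500 to 64.3 ± 3.30 CPM (2.16 ± 0.098). The mucin MUC1 (−1.45 ± 0.17 in ALDHbr, −1.39 ± 0.17 in ALDHneg cells) and TEAD2 (−1.37 ± 0.056 and −1.26 ± 0.056), a partner of YAP, fell. Of 23 mesenchymal effectors 10 rose in each fraction, and 2 (ALDHbr) and 4 (ALDHneg) fell. Of 30 epithelial adhesion and keratin genes 12 and 13 rose and 9 and 8 fell. Of 17 epithelial regulators 4 and 5 rose and 4 fell in each. Of 31 TGF-beta pathway genes 10 and 8 rose and 7 and 9 fell, and of 16 mesenchymal regulators 4 and 5 rose and 2 and 3 fell. Of 19 SNAI1 cofactor genes 6 rose in each fraction and 6 and 3 fell. Among the colon markers, 6 and 5 of 10 fell and 1 rose in each, and their sum went from 759.7 to 821 CPM under DMSO to 826 to 856 CPM under NIF in ALDHbr cells.

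The genes most like a member across libraries were sought by Pearson's r of log2 CPM, for the members at 10 CPM or more with the widest range of group means. In SUM159 these were SNAI1 and CDH2, and each r is over 12 libraries that share the sort, the treatment and the replicate number. SNAI1 was closest to ARC (0.96), RGS16 (0.95) and TMEM100 (0.93). ARC is an immediate early gene and RGS16 a regulator of G protein signalling. CDH2 was closest to CBX8 (0.98), DDAH1 (0.98) and NEURL4 (0.98). In SW620 only CDH1 reached 10 CPM, with group means within 0.06 on the log2 scale of each other, and was closest to NEO1 (0.96), ESRG (0.95) and F5 (0.94).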

How the data were processed

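The authors sequenced stranded total RNA libraries from sorted cells and deposited the unnormalized read counts of 28307 genes in 24 libraries. FastQC, STAR and GRCh38 are named in the submitters' processing notes. The counting tool, its strand setting and the annotation are not given in the sources used here. Groups were taken from the sample labels, and every count column was mapped to a sample by its name.

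Tests were run in edgeR 4.0.16 under R 4.3.3, with filterByExpr by group, TMM scaling, quasi-likelihood F tests and Benjamini-Hochberg adjustment at 0.05 with no minimum fold. Comparisons within a line used its 12 libraries (14953 genes in SUM159, 13953 in SW620). Comparisons between the lines, and of the NIF effect between them, used all 24 (16271 genes). The SE is the log2 fold change divided by the square root of F. CPM and log2 CPM (prior count 2) were computed from TMM sizes, and CPM per kb from canonical transcript lengths (GENCODE, lengths only). Intervals and floors (3 counts) cover counting error only, at a level of 95%. The scripts were tested on simulated data.

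Members and lists were chosen with earlier results of these data known. All 10 members were named in each comparison, with the 2 highest and 2 lowest called list genes (marker lists apart) whose groups did not overlap and whose log2 CPM averaged 1 or more. A result that this rule names is not reported here. MIR200 loci, ZEB1-AS1, TWIST2, ESRP1 and the genes of the library that stood apart were named after their values were seen. Same-numbered SUM159 libraries deviated together (correlation over 0.1 in 18 of 18 pairs, 0.126 to 0.452), and these numbers were therefore used as pairs. Replicates differed by more than sampling noise (chi-square per gene 1.97 to 46.1 over 24 pairs). The alternatives were DESeq2 1.42.0, RLE factors, library-size scaling, no filter, at least 10 counts in every library, other sets of libraries, the replicate block and leaving out each replicate.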

Additional observations from a re-analysis of the deposited data

Results flagged for a closer look

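The NIF effect between the lines was compared by the test of the difference itself (edgeR's quasi-likelihood test, all 24 libraries). It was called for FN1 and CDH1 in ALDHbr cells (2 of 10 members, 23.1% of all genes) and for FN1 and ZEB1 in ALDHneg cells (2 of 10, 22.4%). TWIST1, ZEB2, SPARC, CDH2 and SNAI2, at 0 to 2 counts in each SW620 library, entered only through SUM159, and CDH1 only through SW620. Their NIF effect could hardly be estimated in the line where they are near 0. The member counts can therefore not be weighed against the shares of all genes. For FN1 the effect in SUM159 minus that in SW620 was 1.55 ± 0.52 on the log2 scale in ALDHbr (adjusted p = 0.0323) and 0.85 ± 0.26 in ALDHneg cells (adjusted p = 0.0202), where FN1 has 4 to 84 counts in SW620 and at least 42800 in SUM159. The ALDHbr call was lost in 8 of 12 fits that leave out 1 library (1.43 to 1.71), those without libraries 1 or 3 of SUM159 NIF, 1 of SUM159 DMSO, any of SW620 NIF, or 1 or 2 of SW620 DMSO. The ALDHneg call was lost without the third SW620 NIF library (0.72) and without the first SW620 DMSO library (0.64).

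For ZEB1 in ALDHneg cells the difference was −1.67 ± 0.38 (adjusted p = 0.00197), and SUM159 stayed at 50.3 to 61.3 CPM in both media. In ALDHbr cells it was not called (adjusted p = 0.135).

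For CDH1 in ALDHbr cells the difference was −2.96 ± 1.00 (adjusted p = 0.0345). It rests on the third SUM159 ALDHbr DMSO library, with 68 CDH1 counts against 0 and 2 in the other DMSO libraries and 6, 3 and 0 under NIF. Without it the value was 1.33 (adjusted p = 0.47). KRT20 (−5.77 ± 1.30) and KRT19 (−3.72 ± 1.09), which the naming rule picks in the same comparison, went to 1.90 (adjusted p = 0.499) and 1.17 (adjusted p = 0.406) without that library. TEAD2 (1.40 ± 0.10) and MUC1 (1.60 ± 0.30) were called in the same test, as they were in ALDHneg cells (1.15 ± 0.10 and 1.14 ± 0.29), along with ETS1 (−2.33 ± 0.15) there.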

How the results depend on the processing

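The number of members called moved with the filter in comparisons that involve SW620, and with the replicate block and the libraries included in SUM159. With at least 10 counts in every library 1 member was left called in each comparison between the lines and in each SW620 fraction under NIF, and 0 in the SW620 sort and in the NIF effect between lines, since the other members drop out of the test. With no filter 1 member (SNAI1) was called under NIF in each SUM159 fraction. With the replicate block 3 (ALDHbr) and 4 (ALDHneg) members were called under NIF in SUM159 and 8 in the SUM159 sort under NIF. For the NIF effect between lines in ALDHbr cells, library-size scaling and a fit on only the groups compared each called 1. Leaving out each replicate gave 3 to 5 members for the SUM159 sort under DMSO, 2 to 5 under NIF, 1 to 2 for the SW620 sort under NIF, and 0 to 2 (ALDHbr) and 1 to 2 (ALDHneg) for the effect between lines. The log2 value of that effect in ALDHbr cells reversed without the third SUM159 ALDHbr DMSO library, with ranges over the fits without 1 library of −3.86 to 1.33 for CDH1, −6.35 to 1.90 for KRT20 and −4.35 to 1.17 for KRT19. The cause of these changes was not tested.

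All-gene counts moved too. Under NIF in SUM159, 473 (ALDHbr) and 493 (ALDHneg) genes were called, 854 and 855 by DESeq2, 1994 and 1970 with the block, 725 and 743 in the fit of all libraries, and 292 in the fit of the ALDHneg groups alone. The SUM159 sort called 3432 and 3281 genes, and 5388 and 5270 with the block. The SW620 sort called 1577 under DMSO, 729 in the fit of those groups alone, and 712 to 5487 when 1 library was left out. Leaving out 1 library gave as few as 222 and 192 NIF genes in SUM159 and 494 genes in the SW620 sort under NIF (931 with all). Of 1537 log2 fold changes under alternatives, 1452 stayed on their side of the threshold, 61 lost the call, 21 gained it and 3 reversed. In SW620 same-numbered libraries did not deviate together (over 0.1 in 1 of 18 pairs, −0.276 to 0.213), so the numbers were not taken as pairs there. The block left 5705 and 5978 NIF genes called against 6038 and 6286. Values of genes at 0 to 20 counts, such as FN1 and ZEB1 in SW620, are limited by depth, and no change in TWIST1, ZEB2, SPARC or CDH2 was detectable in SW620.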
